A study of Mus musculus with 18 samples.

Results

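Cells release ATP and other nucleotides when they are stressed or activated, and macrophages read these molecules through ligand-gated P2X channels and G protein-coupled P2Y receptors. Ectoenzymes on the cell surface break the nucleotides down step by step to adenosine, which acts on its own receptors, and adenosine deaminase removes it by converting it to inosine. In macrophages extracellular ATP is best known for opening the P2X7 channel upstream of the inflammasome, whereas adenosine is best known for restraining inflammatory cytokine production through cAMP. The genes described here are 9 of the 24485 genes listed in every library, taken as a named set by gene symbol: the adenosine receptor genes Adora2a, Adora2b and Adora3, the P2X channel genes P2rx4 and P2rx7, the P2Y receptor genes P2ry2 and P2ry6, the ectonucleotidase gene Entpd1 and the adenosine deaminase gene Ada. All 9 symbols were present in all 18 libraries.

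RNA was sequenced from bone marrow-derived macrophages (BMDMs), macrophages grown for 6 days from the bone marrow of 3 male Il10-/- mice aged 12 weeks on the C57BL/6J background. The 6 groups of 3 libraries all lacked the cytokine gene Il10, the controls included, and were unstimulated cells, cells given (+)-JQ1 at 500 nM, cells given IL-10 at 10 ng/mL, and the same 3 pretreatments followed by LPS at 50 ng/mL. JQ1 is a small molecule that keeps BET proteins from binding acetylated histones, LPS is the bacterial cell wall component sensed by TLR4, and IL-10 is the anti-inflammatory cytokine that these cells lack. Pretreatment lasted 12 hours and LPS or saline buffer was then present for 4 hours. The labels name the cells given neither agent untreated, whereas the methods name a vehicle control before LPS. The macrophages were cultured with L929-conditioned medium, and no wild-type cells were part of the comparison.

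The libraries held 6781952 to 28289498 expected counts, so a floor of 3 counts corresponded to 0.106 to 0.442 CPM, which covers counting error only. The macrophage genes Lyz2, Cd68, Csf1r and Adgre1 were abundant in all 18 libraries (at least 448 TPM). Of the other macrophage markers, Cd14 was at 475 TPM or more, Spi1 at 296 or more, Itgam at 45.8 or more and Mertk at 21.8 or more. Of the neutrophil markers, Ly6g was listed at 0 in 18 libraries, Elane in 17 and Mpo in 16, while the summed level of the 6 markers, nearly all S100a8 and S100a9, ran from 6.76 to 76.1 TPM. The 6 lymphocyte markers summed to at most 1.09 TPM, the 6 dendritic cell markers to at most 3.06 TPM, the 4 mast cell and basophil markers to at most 0.58 TPM and the 5 stromal markers to between 2.13 and 20.5 TPM. Reads of Il10 itself were counted in every library, at 27.1 to 177 normalised counts, and their position within the gene is not given by the files.

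In this report a normalised count is an expected count divided by the library's DESeq2 size factor, and a log2 fold change is DESeq2's estimate with its standard error (SE). TPM, which is scaled by gene length, was used wherever levels of different genes were set side by side. In bulk RNA, fewer cells that express a gene and less RNA of it per cell cannot be told apart. Genes were called higher or lower at a Benjamini-Hochberg adjusted p under 0.05, adjusted over all genes tested.

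Within this set, LPS left the macrophages with far more adenosine receptor RNA and with less of the RNA for the channel P2rx7, the receptor P2ry6 and the ectoenzyme Entpd1. LPS changed 6 of the 9 genes, 3 higher (Adora2a, Adora2b and P2ry2) and 3 lower (P2rx7, P2ry6 and Entpd1), where 66.3% of all genes tested were called (32.4% higher and 33.8% lower), so the share of the set was near the background. The count of members called was 7 with TMM factors or edgeR, and 9 with total counts or in TPM. Over all genes tested, 9721 of 14263 were called with TMM factors, 11067 of 14919 with total counts and 9951 of 11436 in log2(TPM + 1). The count over all genes with edgeR is not given here. The calls of all genes split into 4731 higher and 4937 lower, or 2219 and 8848 with total counts. JQ1 before LPS lowered 6 of 9 (Adora2a, Adora2b, P2rx4, P2rx7, Entpd1 and Ada) and raised none against LPS alone (P2ry6 was called higher under 8 of 12 other settings), where 33.1% of all genes were lower and 57.6% were called in either direction. The split of all calls depended on the scaling, with 3491 genes higher and 4719 lower here, 4123 and 4118 with TMM factors, and 5524 and 2997 with total counts. Beside these falls the summed neutrophil markers were at 10.7 to 23.9 TPM with LPS + JQ1 against 33.2 to 47.5 TPM with LPS, and the stromal markers at 2.13 to 7.04 against 17.3 to 19.1 TPM, mostly Pdgfrb. The stromal markers were at 4.47 to 9.28 TPM in unstimulated cells. The sum of the 8 macrophage markers went the other way. It was 20139 to 23125 TPM with LPS + JQ1 against 15522 to 16931 TPM with LPS. Most of this sum was Lyz2 (median 17589 TPM over the 18 libraries), and the single markers by group are not given here. The part of any of these lists in the results was not tested. IL-10 before LPS changed 5 of 9, with Adora3, P2rx4, P2ry2 and P2ry6 higher and Adora2a lower, where 15.8% of all genes were called, 7.74% higher and 8.09% lower. The Adora2a call was lost under 4 of 12 other settings. Against LPS + IL-10, LPS + JQ1 was lower in 9 of 9, where 31.7% of all genes were lower and 55.6% were called. The comparisons with LPS share the same LPS libraries, and their values are therefore given side by side.

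**Figure D1:**
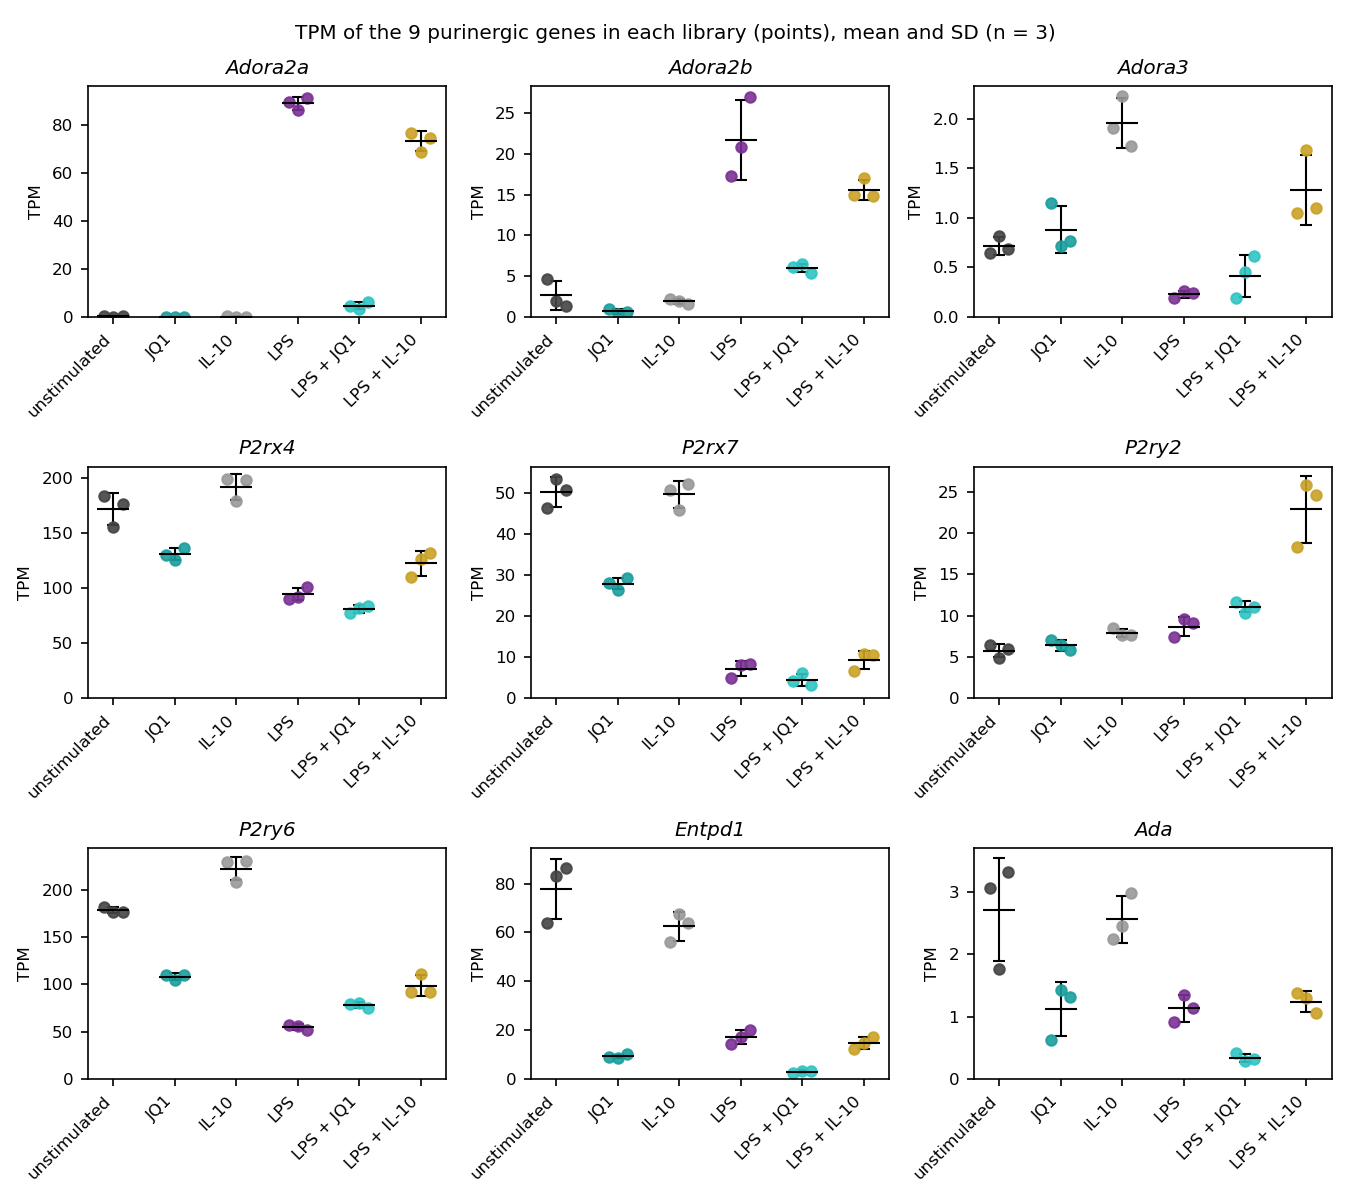
TPM (linear axis from 0) of each of the 9 genes in every library, by group, with points for the 3 libraries, a horizontal line for the mean and bars for the SD. Adora2a lay at or below 0.29 TPM in all 9 libraries without LPS and at 86.4 to 91.5 TPM with LPS. P2rx4 is lower with LPS on this scale, but in normalised counts it did not pass the test.

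Adora2a encodes an adenosine receptor that couples to the stimulatory G protein and raises cAMP. Its gene lies at chr10:74779688-74797533 on the plus strand of mm9. Without LPS it was at the edge of detection, with 6, 1 and 4 expected counts in the unstimulated libraries, 0, 1 and 2 in the JQ1 libraries and 10, 1 and 2 in the IL-10 libraries. With LPS the normalised counts were 2869, 2578 and 2478 in replicates 1, 2 and 3. After JQ1 and LPS they were 116, 79.0 and 142, and after IL-10 and LPS they were 2260, 1871 and 1899. The 4 levels (all cells without LPS, LPS + JQ1, LPS + IL-10, LPS) did not overlap in any library, whereas the 3 groups without LPS overlapped with one another.

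Against unstimulated cells LPS raised Adora2a by 9.67 on the log2 scale (SE 0.459, adjusted p = 1.96e-97). Since the unstimulated libraries held 11 counts together against 6540 with LPS, the size of the ratio, 807, carried a 95% counting interval of 451 to 1618. JQ1 before LPS lowered it by 4.57 (SE 0.163, adjusted p = 4.12e-170), or 23.7-fold. LPS still raised it in cells given JQ1, by 6.92 (SE 0.848, adjusted p = 1.86e-15), a ratio of 120 with a counting interval of 40.8 to 587, because JQ1 alone left 3 counts in all. This value was 7.92 without JQ1 replicate 3 and 6.29 without JQ1 replicate 1. IL-10 before LPS was associated with a smaller difference, a fall of 0.39 (SE 0.141, adjusted p = 0.0364). It did not pass under 4 of 12 other settings (adjusted p up to 0.614), among them the mouse as a block (adjusted p = 0.0777). That call was also lost in 7 of 9 fits that left out libraries. Among these were the fits without LPS + IL-10 replicate 2 or 3 (adjusted p = 0.189 and 0.110) and without LPS replicate 1 or 2 (0.195 and 0.0937).

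Adora2b encodes the other adenosine receptor that raises cAMP, and it is generally described as needing more adenosine for activation than Adora2a. Its gene lies at chr11:62062486-62079955 on the plus strand of mm9. In replicates 1, 2 and 3 of the unstimulated cells 55.5, 23.7 and 16.1 normalised counts were measured, against 12.97, 5.91 and 8.24 after JQ1 and 25.5, 23.1 and 18.3 after IL-10. The LPS libraries held 380, 436 and 516, those of LPS + JQ1 107, 103 and 91.1, and those of LPS + IL-10 309, 325 and 265. All libraries with LPS lay above all libraries without it, and the LPS + JQ1 libraries lay between the unstimulated and the LPS libraries. Unstimulated replicate 1 was high, at more than the values of the other two unstimulated libraries together.

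LPS raised Adora2b by 3.78 (SE 0.285, adjusted p = 2.25e-39), and by 4.58 when unstimulated replicate 1 was left out. JQ1 lowered it by 2.14 during LPS (SE 0.261, adjusted p = 1.34e-15) and by 1.82 in resting cells (SE 0.386, adjusted p = 1.2e-05), the latter value being -1.01 (adjusted p = 0.0248) without unstimulated replicate 1. In cells given JQ1, LPS raised it by 3.46 (SE 0.369). The difference with IL-10 during LPS was -0.57 (SE 0.251, adjusted p = 0.114) and did not pass, although the 3 LPS + IL-10 libraries lay below the 3 LPS libraries.

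Adora3 encodes an adenosine receptor that couples to the inhibitory G protein and lowers cAMP. It lies on the plus strand of chromosome 3, where the mm9 annotation holds a pair of entries under this symbol, chr3:105673776-105711846 and chr3:105673825-105726954. It was scarce throughout, at 10.0, 13.5 and 10.7 normalised counts in the unstimulated replicates, 20.8, 13.8 and 13.7 in the JQ1 replicates and 29.1, 35.3 and 25.8 in the IL-10 replicates. LPS libraries held 5.66, 7.24 and 6.14, LPS + JQ1 libraries 4.42, 9.48 and 13.5, and LPS + IL-10 libraries 28.4, 42.6 and 26.1. Each of the 6 libraries given IL-10 was above each of the 12 that were not. During LPS, IL-10 raised Adora3 by 2.31 (SE 0.472, adjusted p = 1.92e-05), from 15.8 expected counts to 78 in all. For Adora3 this comparison had an adjusted p in 8 of 9 fits that left out libraries, and the call held in those 8. In resting cells its log2 fold change with IL-10 was 1.44 (SE 0.372), but DESeq2 set the gene aside as too low in that comparison and gave no adjusted p. With the mouse as a block the same difference was 1.41 with an adjusted p of 0.00711. LPS against unstimulated cells gave -0.79 (SE 0.504, adjusted p = 0.160), which passed with total-count scaling (-1.72, adjusted p = 0.0011) and in log2(TPM + 1) (-0.48, adjusted p = 0.00273). JQ1 before LPS gave 0.49 (SE 0.531, adjusted p = 0.446) against LPS.

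Stretches of 250 bases before the annotated start are shown for 3 genes with different patterns of calls, Adora2b (higher with LPS, lower with JQ1), Adora3 (higher with IL-10) and Entpd1 (lower with LPS and lower with JQ1), so that the letters can be read beside the levels. They come from RefSeq on build GRCm38.p6 and not from the mm9 build of the files, so their positions are not to be set against those above. Windows of 300 bases, 250 before and 50 after the start, were found for 7 of the 9 genes, 10 windows in all, and not for Adora2a and P2ry6. Both strands were searched for the NF-kB consensus, AP-1 (TGANTCA), CRE (TGACGTCA), the IRF consensus and PU.1 (GAGGAA, or TTCCTC on the other strand), which do not share letters where they were found. They occurred in 8.46%, 7.81%, 1.79%, 3.44% and 28.3% of the 32851 windows of all genes. Capitals mark a match, all sequences are 5′ to 3′ on the strand of the gene (plus in each), and the first is chr11:62248734-62248983, the second chr3:105904171-105904420 and the third, the second of a pair of Entpd1 starts, chr19:40659520-40659769.
Adora2b: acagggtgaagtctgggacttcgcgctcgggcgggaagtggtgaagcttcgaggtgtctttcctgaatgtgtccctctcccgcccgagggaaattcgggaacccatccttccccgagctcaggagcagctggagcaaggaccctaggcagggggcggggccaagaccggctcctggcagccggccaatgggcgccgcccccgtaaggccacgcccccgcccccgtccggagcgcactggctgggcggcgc
Adora3: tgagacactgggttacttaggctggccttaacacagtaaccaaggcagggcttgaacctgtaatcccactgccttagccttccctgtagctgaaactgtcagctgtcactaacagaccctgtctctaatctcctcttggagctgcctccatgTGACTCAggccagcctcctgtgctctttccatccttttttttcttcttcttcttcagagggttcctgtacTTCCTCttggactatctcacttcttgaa
Entpd1: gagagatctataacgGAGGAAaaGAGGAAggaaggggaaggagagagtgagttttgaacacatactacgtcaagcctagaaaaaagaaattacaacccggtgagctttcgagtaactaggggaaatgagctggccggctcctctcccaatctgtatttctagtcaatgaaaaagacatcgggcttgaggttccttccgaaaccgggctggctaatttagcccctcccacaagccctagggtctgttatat

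No letters of the 5 motifs were found in the Adora2b window. The Adora3 window held 1 AP-1 and 1 PU.1 match, at positions -98 and -28 relative to the start, and the second Entpd1 window held 2 PU.1 matches, at positions -235 and -227 relative to the start. Of the windows not shown, that of Ada held 1 NF-kB match and the first window of P2rx7 1 AP-1 match. Both P2rx7 windows had 1 PU.1 match after the start, and the first Entpd1 window and those of P2ry2 and P2rx4 held no match. A match is a description of letters only, and its absence speaks of this window alone.

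Adding the adenosine receptor genes per length, Adora1 included, showed how the make-up of this family moved. The summed level was 5.60, 2.81 and 2.23 TPM in the unstimulated libraries, 2.10, 1.18 and 1.47 TPM in the JQ1 libraries and 4.39, 4.20 and 3.45 TPM in the IL-10 libraries. The LPS libraries summed to 107, 107 and 119 TPM, the LPS + JQ1 libraries to 10.9, 10.4 and 12.1 TPM and the LPS + IL-10 libraries to 92.9, 87.7 and 90.5 TPM. LPS libraries thus lay above all others and LPS + JQ1 libraries lay between those without LPS and those with LPS + IL-10.

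Adora2a made up 5.45% ± 2.05 of this sum in unstimulated cells (SD, n = 3), 80.4% ± 3.34 with LPS, 81.3% ± 2.25 with LPS + IL-10 and 41.9% ± 8.36 with LPS + JQ1. Adora2b was the leading receptor in unstimulated cells, with 70.7% ± 11.4, and again with LPS + JQ1, with a mean of 54.4% ± 8.85, although Adora2a led in replicate 3 of that group and in mean normalised counts (49.9% against 46.0%). Adora3 made up 56.1% ± 4.46 with JQ1 alone and 48.9% ± 4.91 with IL-10 alone, and 0.207% ± 0.0328 with LPS. Adora1, the other receptor that lowers cAMP, was listed at 0 in every group but LPS + IL-10, where it made up 0.0289%. Shares in cells without LPS rest on few counts and were not tested.

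**Figure D2:**
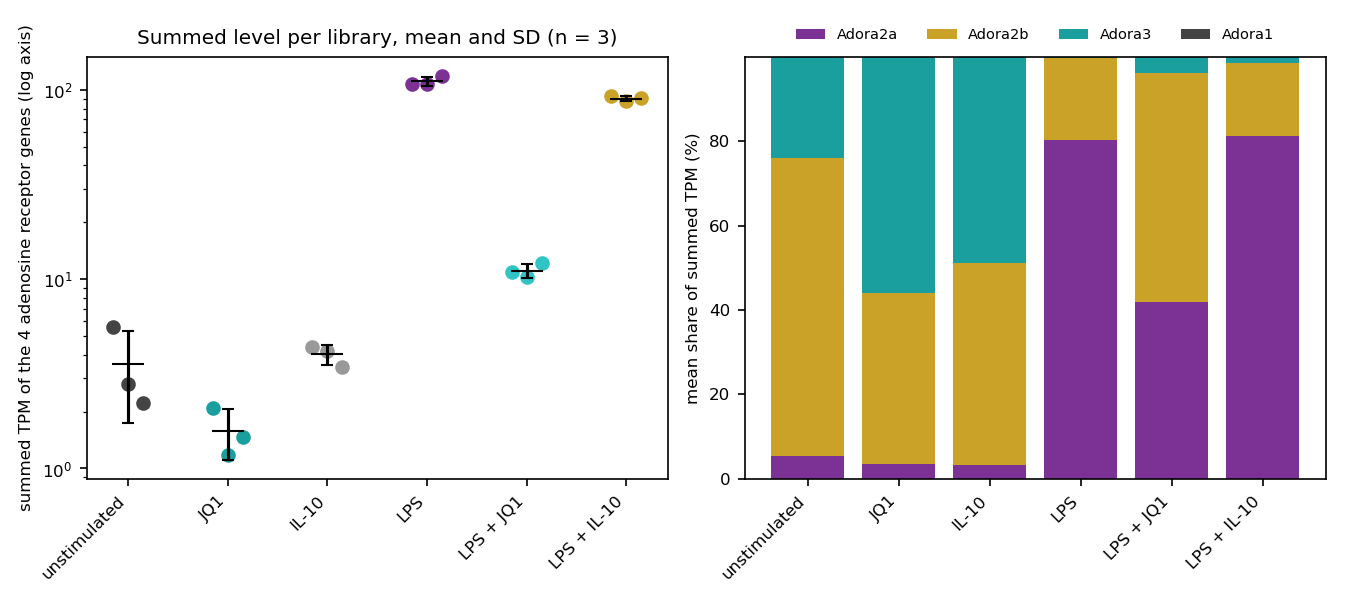
Left, summed TPM of Adora1, Adora2a, Adora2b and Adora3 per library on a log axis, with points for the 3 libraries of each group, a line for the mean and bars for the SD. Right, mean share of each receptor gene in that sum, in percent, where Adora2a went from 5.45% in unstimulated cells to 80.4% with LPS and 41.9% with LPS + JQ1.

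P2rx4 encodes an ATP-gated cation channel of plasma membrane and lysosomes. It lies at chr5:123157593-123179747 on the plus strand of mm9, 16151 bases from P2rx7. It was one of the most abundant of the 9 genes per length, at 171 ± 14.7 TPM in unstimulated cells (SD, n = 3). Unstimulated replicates 1, 2 and 3 had 3299, 2945 and 3132 normalised counts, JQ1 replicates 2694, 2749 and 2801, and IL-10 replicates 3477, 3250 and 3383. LPS brought 3013, 2925 and 2907, LPS preceded by JQ1 2039, 1988 and 2117, and LPS preceded by IL-10 3412, 3628 and 3568. The LPS + JQ1 libraries were the lowest 3 of the 18, and the unstimulated and LPS groups overlapped.

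JQ1 before LPS lowered P2rx4 by 0.53 (SE 0.0534, adjusted p = 6.68e-22) and IL-10 before LPS raised it by 0.26 (SE 0.0521, adjusted p = 1.03e-05), the latter not when only the 2 groups were fitted (adjusted p = 0.0672). Under 12 other settings the value of P2rx4 with JQ1 during LPS ran from -0.53 to -0.15 (adjusted p up to 0.0305). JQ1 alone lowered it by 0.19 (SE 0.0514, adjusted p = 0.000815), a call lost when replicate 1 was left out of all groups (-0.13, adjusted p = 0.283) or replicate 3 (-0.20, adjusted p = 0.0552). LPS against unstimulated cells gave -0.09 (SE 0.0519, adjusted p = 0.124), a value that depended on the scaling. The median log2 fold change of all genes tested under LPS was -0.07 with the size factors used, -0.15 with TMM factors, -1.01 when libraries were scaled by their totals and -0.69 in TPM. Relative to these medians P2rx4 differed by -0.01, -0.01, -0.0047 and -0.16, and the difference before subtracting the median passed the test under the latter 3. Adora2a, Adora2b and P2ry2 were higher, and P2rx7, P2ry6 and Entpd1 lower, with LPS under each of these scalings.

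P2rx7 encodes the ATP-gated channel that lets potassium leave the cell and thereby activates the NLRP3 inflammasome, and it lies at chr5:123093920-123141441 on the plus strand of mm9. Its level was 1238, 1311 and 1302 normalised counts in the unstimulated replicates, 817, 865 and 845 in the JQ1 replicates and 1386, 1308 and 1399 in the IL-10 replicates. The replicates of LPS read 271, 326 and 307, of LPS + JQ1 130, 154 and 118, and of LPS + IL-10 322, 394 and 362. Libraries with LPS all lay below those without, and the LPS + JQ1 libraries were the lowest.

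LPS lowered P2rx7 by 2.08 (SE 0.0871, adjusted p = 5.94e-125), or 4.23-fold, and JQ1 before LPS lowered it by a further 1.17 (SE 0.113, adjusted p = 5.64e-24). Under 12 other settings the value of P2rx7 with JQ1 during LPS ran from -1.17 to -0.57 (adjusted p up to 0.0154). JQ1 alone lowered it by 0.61 (SE 0.0746, adjusted p = 6.62e-15). The difference with IL-10 during LPS was 0.24 (SE 0.097, adjusted p = 0.0693), and it passed without LPS + IL-10 replicate 1 (0.31, adjusted p = 0.0220) or without LPS replicate 2 (0.31, adjusted p = 0.0423). RSEM assigned reads of this gene to 5 transcripts, and the resulting mean length varied between libraries. It ran from 2829 bases in LPS + JQ1 replicate 2 to 4306 bases in LPS replicate 1. Group means ran from 3304 ± 572 bases with LPS + JQ1 to 4112 ± 13.98 bases with IL-10 (SD, n = 3).

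P2ry2 encodes a receptor for ATP and UTP that serves as a sensor for nucleotides released by dying cells. It lies at chr7:108145086-108160505 on the minus strand of mm9. In replicates 1, 2 and 3 of the unstimulated cells 128, 99.8 and 119 normalised counts were measured, against 161, 156 and 134 after JQ1 and 166, 152 and 143 after IL-10. The LPS libraries held 277, 340 and 293, those of LPS + JQ1 343, 282 and 309, and those of LPS + IL-10 637, 835 and 745. The LPS + IL-10 libraries stood above all others, and the LPS and LPS + JQ1 libraries overlapped.

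LPS raised P2ry2 by 1.37 (SE 0.144, adjusted p = 6.9e-21), and by 0.45 to 1.42 under 12 other settings. IL-10 before LPS raised it by a further 1.28 (SE 0.128, adjusted p = 2.65e-21), whereas IL-10 alone gave 0.39 (SE 0.145, adjusted p = 0.116). The effect of IL-10 was greater in the presence of LPS, by 0.88 (SE 0.193, adjusted p = 0.00022 for the interaction), where 6.67% of all genes tested showed an interaction (3.6% higher, 3.07% lower) and 2 of these 9 did, P2ry2 and P2ry6. This interaction did not pass when replicate 3 was left out of all groups (0.79, adjusted p = 0.0736). JQ1 before LPS gave 0.03 (95% interval -0.23 to 0.29, adjusted p = 0.859) with these size factors, and 0.41 (adjusted p = 0.00836) with total counts and 0.33 (adjusted p = 0.0334) in TPM. In resting cells JQ1 gave 0.35 (SE 0.149, adjusted p = 0.0411). The call was lost under 7 of 12 other settings (adjusted p up to 0.410), among them the mouse as a block (adjusted p = 0.0504). It was also lost in 7 of 9 fits that left out libraries (adjusted p up to 0.282). Among these were the fits without JQ1 replicate 1 or 2 (0.149 and 0.103) and without unstimulated replicate 2 or 3 (0.147 and 0.0900).

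P2ry6 encodes the UDP receptor, which promotes phagocytosis and chemokine release in myeloid cells. It lies 32180 bases from P2ry2, at chr7:108086152-108112905 on the minus strand of mm9. Unstimulated replicates 1, 2 and 3 had 2263, 2322 and 2172 normalised counts, JQ1 replicates 1568, 1570 and 1566, and IL-10 replicates 2758, 2612 and 2716. LPS brought 1313, 1235 and 1024, LPS preceded by JQ1 1443, 1346 and 1317, and LPS preceded by IL-10 1985, 2224 and 1728. The IL-10 libraries were the highest 3 and the LPS libraries the lowest 3, and the JQ1 libraries lay below the unstimulated ones.

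LPS lowered P2ry6 by 0.92 (SE 0.0929, adjusted p = 2.09e-22) and IL-10 before LPS raised it by 0.73 (SE 0.0936, adjusted p = 4.36e-13). JQ1 moved it in resting cells by -0.52 (SE 0.0913, adjusted p = 8.17e-08). During LPS, JQ1 gave 0.20 (SE 0.0943, adjusted p = 0.0552), which passed with the mouse as a block (adjusted p = 0.0297), without LPS replicate 1 (adjusted p = 0.0143) and under TMM factors (0.32, adjusted p = 0.00181). It passed under 8 of 12 other settings, with the highest value under total-count scaling (0.58, adjusted p = 1.92e-09). The effect of JQ1 thus differed with LPS, by 0.72 (SE 0.131, adjusted p = 2.91e-07 for the interaction), where 39.5% of all genes tested (16.8% higher, 22.6% lower) and 4 of these 9, P2ry6 higher and Adora2a, P2rx4 and P2rx7 lower, were called. Under total-count scaling the differences for P2rx4 and P2rx7 were 0.22 (adjusted p = 0.0289) and -0.01 (adjusted p = 0.969). The effect of IL-10 differed by 0.47 (SE 0.13, adjusted p = 0.00692). This second interaction did not pass when replicate 1 or replicate 2 was left out of all groups (0.55, adjusted p = 0.0702, and 0.37, adjusted p = 0.486).

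Entpd1 encodes CD39, the ectonucleotidase that converts ATP and ADP to AMP, from which another enzyme has yet to form adenosine. It lies at chr19:40686856-40816092 on the plus strand of mm9. Its level was 1856, 2549 and 2477 normalised counts in the unstimulated replicates, 302, 305 and 331 in the JQ1 replicates and 1584, 1979 and 1752 in the IL-10 replicates. The replicates of LPS read 779, 884 and 938, of LPS + JQ1 106, 133 and 124, and of LPS + IL-10 617, 683 and 748. The 6 libraries given JQ1 were the lowest 6 of the 18, and with LPS + JQ1 the gene was at 121 ± 13.6 against 2294 ± 381 in unstimulated cells (SD, n = 3).

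LPS lowered Entpd1 by 1.40 (SE 0.127, adjusted p = 2.09e-27). With JQ1 it was 7.34-fold lower in resting cells (log2 fold change -2.87, SE 0.132, adjusted p = 3.15e-103) and 7.17-fold lower during LPS (-2.84, SE 0.15, adjusted p = 9.91e-79). The difference between these effects was 0.03 (95% interval -0.36 to 0.42, adjusted p = 0.919) with the size factors used. It passed with total-count scaling (0.58, adjusted p = 0.00926) and in log2(TPM + 1) (0.74, adjusted p = 0.00489), where the medians of all genes were 0.51 and 0.39. JQ1 in resting cells called 7 of the 9 genes, where 44.7% of all genes tested were called, 21.4% higher and 23.2% lower. P2ry2 was higher, a call lost under 7 of 12 other settings, and Adora2b, P2rx4, P2rx7, P2ry6, Entpd1 and Ada were lower. The summed neutrophil markers were at 6.76 to 13.9 TPM with JQ1 against 21.1 to 76.1 TPM in unstimulated cells. The summed macrophage markers, mostly Lyz2, were at 29269 to 29413 TPM with JQ1 against 23417 to 25271 TPM in unstimulated cells. The part of these lists in the results was not tested.

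IL-10 gave -0.34 for Entpd1 during LPS (SE 0.131, adjusted p = 0.0543) and -0.37 in resting cells (SE 0.125, adjusted p = 0.0665). Both passed with the mouse as a block, with adjusted p of 0.00206 and 0.0007. The resting difference also passed without unstimulated replicate 1 (-0.50, adjusted p = 0.000562) or IL-10 replicate 2 (-0.46, adjusted p = 0.0397), and the difference during LPS without LPS replicate 1 (-0.41, adjusted p = 0.0334) or LPS + IL-10 replicate 3 (-0.41, adjusted p = 0.0263). In resting cells as a whole, DESeq2 called 0 of the 7 members it tested with IL-10, where 3.92% of all genes were called, 2.46% higher and 1.46% lower. Of the 9 members, 5 had an unadjusted p under 0.05, edgeR called 1, and the fit with the mouse as a block called 3, Adora3, P2ry6 and Entpd1. Over all genes the fit with the block called 442 and the fit without it 367. Shares of all genes at an unadjusted p under 0.05 and with edgeR are not given here.

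Ada encodes adenosine deaminase and lies at chr2:163552320-163575975 on the minus strand of mm9. Its counts were low, at 33.2, 20.3 and 35.5 normalised counts in unstimulated replicates, 7.78, 18.7 and 16.5 after JQ1 and 23.6, 26.9 and 30.7 after IL-10. LPS replicates held 18.4, 25.8 and 19.6, LPS + JQ1 replicates 6.63, 4.21 and 4.92, and LPS + IL-10 replicates 25.7, 22.8 and 17.1. The 3 LPS + JQ1 libraries were the lowest of the 18, at 14 expected counts in all, and the other groups with LPS overlapped with one another. JQ1 before LPS lowered Ada by 2.03 (SE 0.501, adjusted p = 0.00013), with a counting interval of 0.124 to 0.442 for the ratio of 0.242. Under 12 other settings this log2 fold change of Ada ran from -2.04 to -0.66. JQ1 alone also lowered it (-1.12, SE 0.361, adjusted p = 0.00581), a call that was lost without JQ1 replicate 1 (-0.81, adjusted p = 0.0772) or unstimulated replicate 3 (-0.97, adjusted p = 0.0534), and when replicate 1 (-0.71, adjusted p = 0.346) or replicate 3 (-1.07, adjusted p = 0.135) was left out of all groups. LPS against unstimulated cells gave -0.52 (SE 0.353, adjusted p = 0.191), which passed with total-count scaling (-1.45, adjusted p = 7.7e-05) and in log2(TPM + 1) (-0.78, adjusted p = 0.000353). IL-10 before LPS gave -0.00056 (95% interval -0.74 to 0.74, adjusted p = 1).

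**Figure D3:**
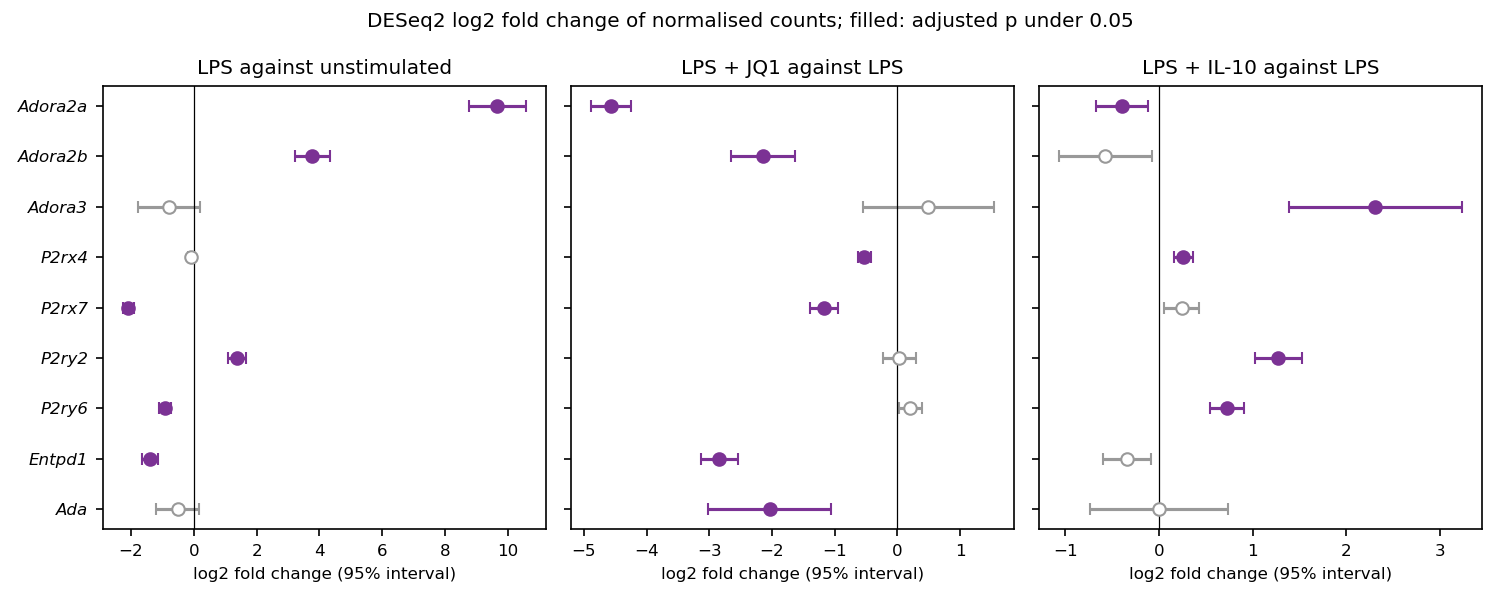
DESeq2 log2 fold change of normalised counts (points) with its 95% interval (bars) for the 9 genes under LPS against unstimulated cells, LPS + JQ1 against LPS and LPS + IL-10 against LPS, on separate axes. Filled points have an adjusted p under 0.05: with JQ1 6 genes lie below 0 and none above (P2ry6 passed above 0 under 8 of 12 other settings), and with IL-10 4 lie above and Adora2a below. The Adora2a call was lost under 4 of 12 other settings, the mouse as a block among them.

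JQ1 and IL-10 before LPS could be set against each other directly. The log2 fold change of LPS + JQ1 against LPS + IL-10 was -4.17 for Adora2a (SE 0.163), -2.50 for Entpd1 (SE 0.151), -2.03 for Ada (SE 0.502) and -1.82 for Adora3 (SE 0.422). For the other 5 genes the differences ran from -1.57 for Adora2b to -0.53 for P2ry6, and no library of one group overlapped with the other for any of the 9. The median over the 9 genes was -1.57 beside -0.10 over all genes tested. The response to LPS after JQ1 against JQ1 alone called 7 of the 9 (3 higher, 4 lower, and 8 with the mouse as a block), where 60.5% of all genes were called, 28.5% higher and 32% lower. P2ry6 did not pass in this comparison (-0.20, adjusted p = 0.0563) but did with the block (adjusted p = 0.0323) and without LPS + JQ1 replicate 1 (-0.24, adjusted p = 0.0448), and the fall of Ada (-1.44, adjusted p = 0.00895) was lost without JQ1 replicate 2 (-1.20, adjusted p = 0.0560), without replicate 2 or 3 of all groups (-1.05, adjusted p = 0.191, and -1.27, adjusted p = 0.114) and with only these groups fitted (-1.38, adjusted p = 0.0743). After IL-10 against IL-10 alone it called 6 of the 9 (3 higher, 3 lower), where 62.7% were called (31.1% higher and 31.6% lower), among them P2ry2 with 2.26 (SE 0.128, adjusted p = 2.85e-68).

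The genes whose normalised counts followed each member most closely over the 18 libraries were found among 9488 genes, as a description in which all points share libraries and groups. They were Fscn1 and Tor1aip1 for Adora2a (Pearson r of 0.997 and 0.995), Ifi47 and Gbp6 for Adora2b (0.993 and 0.991) and Ppm1h and Vav1 for Adora3 (0.893 and 0.863). For the channels they were Arhgap30 and March1 with P2rx4 (0.981 and 0.971) and, among the closest, Fgd4 with P2rx7 (0.994). For the P2Y receptors they were Nfe2l2 and Dtx2 with P2ry2 (0.980 and 0.976) and Sfxn5 and Nsmce1 with P2ry6 (0.961 and 0.938). For the enzymes they were Padi2 and Matk with Entpd1 (0.989 and 0.987) and Bcat2 and Ndst1 with Ada (0.947 and 0.938).

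The wider pathway was read from 5 lists of genes, whose counts stand beside the 66.3% of all genes called with LPS, the 57.6% called with JQ1 before LPS and the 15.8% called with IL-10 before LPS. The medians of all genes in these comparisons were -0.07, -0.11 and -0.02. Of 12 other adenosine and nucleotide receptors, 9 were tested under LPS, with 2 higher and 2 lower, and their median log2 fold change was -0.48. JQ1 before LPS called 1 higher and 3 lower of 8 (median -1.75), and IL-10 before LPS 3 lower of 5 (median -0.63). P2ry14, the receptor for UDP-glucose, rose with LPS by 3.53 (SE 0.264, adjusted p = 5.5e-40), from 30.4 ± 13.9 to 374 ± 86.2 normalised counts (SD, n = 3). With LPS + JQ1 it was at 23.1 ± 4.06, a fall of 4.01 (SE 0.288, adjusted p = 8.23e-43), and with LPS + IL-10 at 241 ± 50.6 (-0.63, adjusted p = 0.0423). P2ry1, an ADP receptor, moved the other way, from 133 ± 22.7 to 37.3 ± 4.48 with LPS (-1.80, adjusted p = 2.13e-18) and to 87.8 ± 9.67 with LPS + JQ1 (1.22, adjusted p = 3.08e-08). With LPS + IL-10 it was lower than with LPS, at 17.8 ± 1.41 (-1.10, adjusted p = 0.00167).

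The list of 13 other ectonucleotidases also held enzymes of internal membranes, Entpd4 and Entpd5 among them. Of these 13 genes 11 were tested under LPS, with 2 higher and 6 lower (median -0.90). Thus 8 of 11 were called beside 66.3% of all genes. Enpp4, which hydrolyses nucleotides on the cell surface, rose by 4.82 (SE 0.249, adjusted p = 3.77e-82) and was lower by 0.81 with JQ1 before LPS (adjusted p = 0.000132). Entpd5, an endoplasmic reticulum relative of Entpd1 that hydrolyses UDP, moved in the opposite direction to Entpd1 with JQ1. It was at 111 ± 15.8 normalised counts with LPS and at 609 ± 6.66 with LPS + JQ1, a rise of 2.46 (SE 0.128, adjusted p = 1.16e-80). Entpd4, a nucleotidase of the Golgi apparatus, fell by 1.39 with LPS (adjusted p = 3.23e-10), and Enpp1, which cleaves ATP to AMP, rose by 0.53 with IL-10 before LPS (adjusted p = 0.0123). Across this list JQ1 before LPS called 4 higher and 3 lower of 11 (median 0.80), beside 57.6% of all genes. The 4 higher were Entpd4, Entpd5, Entpd6 and Entpd7, and the 3 lower were Enpp1 (-0.66), Enpp4 and Acpp (-2.75). The median therefore does not describe the cell surface enzymes alone. IL-10 before LPS called 1 higher of 8 (median 0.19), beside 15.8%.

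Intracellular adenosine metabolism held 16 genes. LPS called 7 higher and 4 lower of 15 (median 0.16), beside 66.3% of all genes. JQ1 before LPS called 4 higher and 9 lower of 15 (median -0.98), beside 57.6% of all genes, and IL-10 before LPS 1 higher and 1 lower of 15 (median 0.04), beside 15.8%. Nt5c3, a cytosolic nucleotidase, rose with LPS by 5.50 (SE 0.203, adjusted p = 7.06e-161) to 4858 ± 1189 normalised counts, while Gda, guanine deaminase, fell by 2.14 with JQ1 before LPS (SE 0.198, adjusted p = 5.04e-26) and rose by 0.61 with IL-10 before LPS (adjusted p = 0.0126). Ampd3, an AMP deaminase, fell by 0.53 with IL-10 before LPS (SE 0.105, adjusted p = 8.23e-06). Pnp2, a purine nucleoside phosphorylase, rose by 8.85 with LPS (SE 0.661) and fell by 3.35 with JQ1 before LPS, but its counts are uncertain because it closely resembles Pnp, with which it can share reads.

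Of 12 nucleoside transporters and ATP release channels, LPS called 2 higher and 5 lower of 9 (median -0.59), beside 66.3% of all genes. JQ1 before LPS called 3 higher and 3 lower of 8 (median -0.02), beside 57.6%, and IL-10 before LPS 3 higher of 8 (median 0.10), beside 15.8%. Slc28a2, the concentrative nucleoside transporter, carried the widest swing of the list with JQ1. It went from 119 ± 6.42 normalised counts in unstimulated cells to 2892 ± 466 with LPS (4.59, adjusted p = 7.81e-153), 93.0 ± 21.0 with LPS + JQ1 (-4.96, adjusted p = 2.5e-162) and 5298 ± 1024 with LPS + IL-10 (0.87, adjusted p = 7.37e-07). Gja1, the connexin whose hemichannels release ATP, rose by 4.65 with LPS (adjusted p = 1.66e-59) and by a further 1.06 with IL-10 (adjusted p = 8.85e-05). Lrrc8a, the obligate subunit of volume-regulated anion channels, fell by 2.01 with LPS (adjusted p = 6.38e-66), and with LPS present it was higher with JQ1 (1.92, adjusted p = 1.52e-59) and with IL-10 (1.22, adjusted p = 4.23e-22).

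The cAMP arm below the adenosine receptors held 31 genes. LPS called 9 higher and 12 lower of 26 (median -0.04), beside 66.3% of all genes. JQ1 before LPS called 5 higher and 12 lower of 26 (median -0.32), beside 57.6%, and IL-10 before LPS 3 lower of 25 (median -0.07), beside 15.8%. Pde4b, a phosphodiesterase that degrades cAMP, rose by 4.39 with LPS (SE 0.138, adjusted p = 1.78e-220), whereas Adcy9, an adenylyl cyclase that makes cAMP, fell by 3.39 (SE 0.128, adjusted p = 2.06e-152). JQ1 before LPS lowered Pde4a by 1.40 (adjusted p = 8.72e-26) and the cyclase Adcy7 by 1.28 (adjusted p = 3.43e-71). IL-10 before LPS lowered Crem, a cAMP-responsive transcription factor, by 0.67 (adjusted p = 0.00618) and Pde2a by 0.57 (adjusted p = 0.00933).

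**Figure D4:**
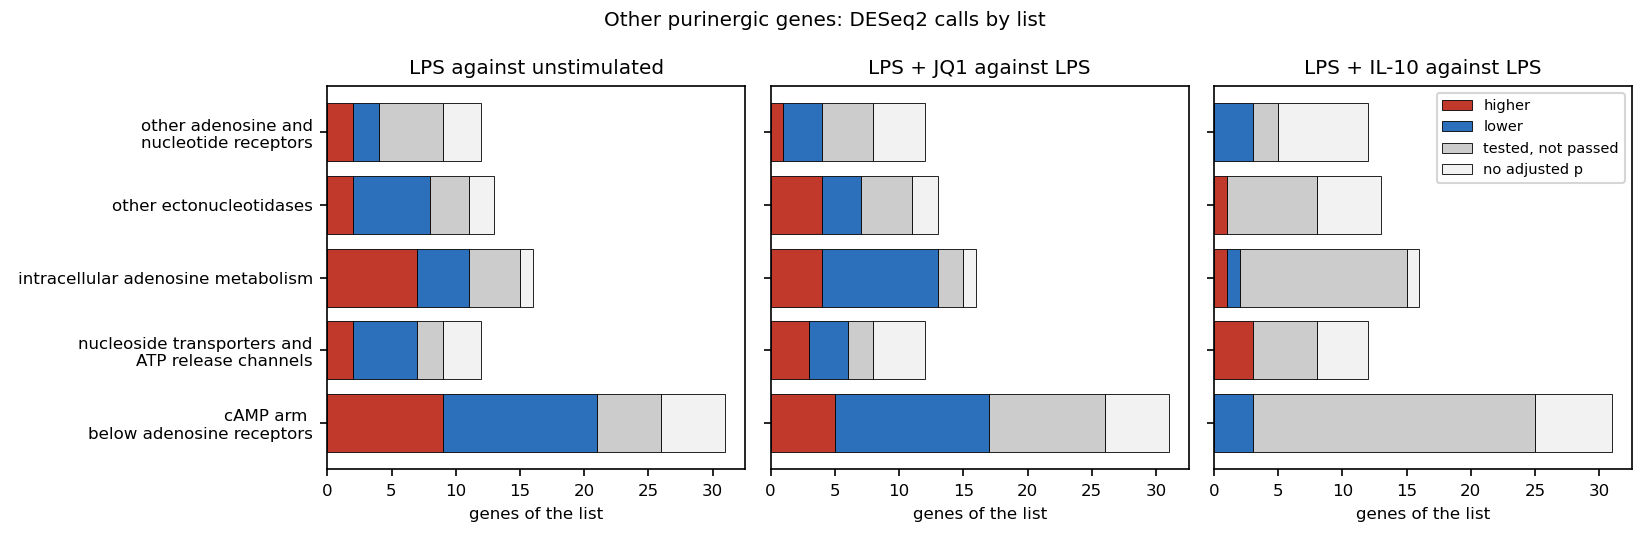
Number of genes of each of the 5 pathway lists called higher or lower by DESeq2, tested without passing, or left without an adjusted p, in LPS against unstimulated cells, LPS + JQ1 against LPS and LPS + IL-10 against LPS. The cAMP list has 9 higher and 12 lower genes with LPS and 3 lower genes with IL-10 before LPS.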

How the data were processed

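The authors prepared stranded, rRNA-depleted libraries, sequenced them as paired reads of 50 bases, and aligned them to mm9 with STAR. Genes were quantified with RSEM 1.2.31 under default settings, which assign reads without regard to strand. The deposited expected counts are RSEM estimates in which a read matching several genes is divided, so they need not be whole (5.40% to 6.63% were not), and they were rounded here. TPM was also deposited by the authors and scales each gene by its length. The deposited transcript and effective lengths were used for the length values and an offset. FPKM was not used.

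Libraries came from 3 mice and the labels call the groups biologically matched, so replicate numbers were taken to name the mouse. Deviations of same-numbered libraries from their group means correlated between -0.22 and 0.64 over 24 pairs. Replicates differed by more than sampling noise (chi-square per degree of freedom 3.97 to 28.3 over 18 pairs).

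The DESeq2 1.42.0 Wald test (R 4.3.3) was fitted over 18 libraries with no term but the group, and edgeR 4.0.16 and limma 3.58.1 were alternatives. Of the 24485 genes listed, those at 0 in all libraries, 7578 before rounding, were left out of the fit. Fits with the mouse as a block, with the sequencing lane (7 or 8, read from the labels), under other scalings and without single libraries were made. Replicate 2 was on lane 7 in every group without LPS and on lane 8 in every group with LPS, so lane and LPS were partly confounded. The scripts were tested on simulated data. Interaction terms compared each pretreatment effect between cells with and without LPS. The members and lists were chosen with earlier results of these data known. Named list genes were the 2 with the largest change per list and comparison (mean normalised count of at least 100). Genes were compared with each member if their mean was at least 50, and 1 gene named by this rule is not reported here. Positions came from the GENCODE annotation of mm9 and promoters from RefSeq.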

Additional observations from a re-analysis of the deposited data

Results flagged for a closer look

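For 6 results the effect of a pretreatment differed between cells with and without LPS by a test of that difference, the DESeq2 interaction with adjustment over all genes tested. For JQ1 the difference was -2.75 on the log2 scale for Adora2a (adjusted p = 0.0137). It rests on 3 counts in the JQ1 libraries and did not pass without JQ1 replicate 3 (-1.75, adjusted p = 0.384), without replicate 2 of all groups (-2.36, adjusted p = 0.102) or with edgeR (-2.76, adjusted p = 0.124). For P2rx4 it was -0.34 (adjusted p = 3.35e-05) and became 0.22 (adjusted p = 0.0289) with total-count scaling. Relative to the median of all genes it was -0.29 and -0.30 under these scalings, and it did not pass without replicate 2 of all groups (-0.28, adjusted p = 0.0558). For P2rx7 it was -0.56 (adjusted p = 0.000169), and it did not pass with total-count scaling (-0.01, adjusted p = 0.969), with an effective length offset (-0.33, adjusted p = 0.320) or without replicate 3 of all groups (-0.47, adjusted p = 0.0588). For P2ry6 it was 0.72 (adjusted p = 2.91e-07).

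For IL-10 the difference was 0.88 for P2ry2 (adjusted p = 0.00022) and 0.47 for P2ry6 (adjusted p = 0.00692). P2ry2 did not pass without replicate 3 of all groups (0.79, adjusted p = 0.0736), and P2ry6 did not pass without replicate 1 (0.55, adjusted p = 0.0702) or replicate 2 (0.37, adjusted p = 0.486).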

How the results depend on the processing

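Of 52 called results for single genes, 41 kept direction and call under every setting that gave an adjusted p. Among the 41, Adora3 with LPS + IL-10 against LPS had an adjusted p in 8 of 9 fits that left out libraries. With the mouse as a block, 2 calls were lost (Adora2a with LPS + IL-10 against LPS, adjusted p = 0.0777, and P2ry2 with JQ1 alone, adjusted p = 0.0504), and the calls gained with the block are given beside their results. It changed no other call, and with this pairing 3 members were called with IL-10 alone. With IL-10 alone the count, 0 as reported, was 1 with edgeR, total-count scaling, log2(TPM + 0.1), a minimum of 10 counts or no filter, 2 with log2(TPM + 1) or lane, and 3 with block and lane or only the groups compared. Over all genes 334 of 10989 tested were called with total-count scaling and 171 of 11436 in log2(TPM + 1). Leaving out libraries gave 0 to 1 members, and shares of all genes in such fits are not given here. Such ranges were 4 to 7 for JQ1 alone, 3 to 6 for LPS + IL-10 against LPS, 2 to 5 for the LPS and JQ1 interaction and 1 to 2 for the LPS and IL-10 interaction. In normalised counts the Adora2a share was 85.4% with LPS and 85.7% with LPS + IL-10.

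Directions turned for values near 0 and for some further from it, and the cause was not tested. With IL-10 alone, P2rx7 was -0.0153 and -0.0156 in the TPM fits and -0.0742 with the length offset. Ada with LPS + IL-10 against LPS was 0.0124 (TMM), 0.0928 (total counts), 0.0750 and 0.13 (TPM + 1 and + 0.1), 0.0085 (block), 0.0077 (lane), 0.0211 (block and lane) and 0.0261 (only the groups). With LPS + IL-10 against IL-10, Adora3 was -0.74 with total counts, -0.38 and -0.60 in TPM and -0.0113 with block and lane, and P2rx4 was -0.76, -0.65 and -0.65 in the first 3. With the size factors used they were 0.08 and 0.07. Among the turned fits the adjusted p went down to 0.0124 for Adora3 and 1.93e-35 for P2rx4. The median of all genes in this comparison was -0.04 with those size factors, -0.88 with total counts and -0.64 in log2(TPM + 1). For the LPS and JQ1 interaction, total counts gave 0.23 for Adora2b, 0.50 for Adora3, 0.22 for P2rx4 and 0.23 for P2ry2. TPM gave 0.0678 and 0.31 for Adora3, 0.17 and 0.17 for P2rx4, 0.25 and 0.17 for P2rx7, 0.19 and 0.20 for P2ry2 and 0.14 for Ada, and Adora3 was 0.0379 with edgeR and 0.0777 with TMM. For the LPS and IL-10 interaction Adora2a was 0.0556 (total counts), 0.0394 (TPM + 0.1) and 0.00286 (length offset), and Adora2b 0.0429 (total counts).

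Without single libraries, values that turned ran from -1.44 to 0.0891 (Adora2a) and -0.92 to 0.30 (Adora2b) with IL-10 alone, -0.11 to 0.20 for P2ry2 with LPS + JQ1 against LPS, -0.22 to 0.18 for Ada with LPS + IL-10 against LPS, and -0.14 to 0.24 for Adora3 with LPS + IL-10 against IL-10. For the LPS and JQ1 interaction they ran from -1.12 to 0.20 (Adora2b), -0.50 to 0.54 (Adora3) and -0.12 to 0.17 (Entpd1), and for the LPS and IL-10 interaction from -0.48 to 1.05 (Adora2a), -0.88 to 0.45 (Adora2b) and -0.0517 to 0.16 (Entpd1). Depth limited Adora2a without LPS, Adora3 and Ada most, with counts down to 0 in a library.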

Other observations

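Levels of some genes around this pathway are given here for JQ1 or IL-10 alone, in libraries that the comparisons during LPS do not use. Entpd5, the UDP-hydrolysing relative of Entpd1, was at 233 ± 36.0 normalised counts in unstimulated cells and 750 ± 29.7 with JQ1 (SD, n = 3). P2ry1 was at 133 ± 22.7 and 308 ± 15.7, and P2ry14 at 30.4 ± 13.9 and 1.499 ± 0.950. Slc28a2 was at 119 ± 6.42 and 25.1 ± 7.69. With IL-10 alone Enpp1 was at 438 ± 43.5 against 272 ± 25.3 in unstimulated cells. These genes were singled out after their values were seen and no test is given.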
